A study of Rattus norvegicus with 12 samples.

Results

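Matrix metalloproteinases (MMPs) and their tissue inhibitors (TIMPs) were followed in the lumbar mammary gland of young Wistar rats whose mothers had received a low protein (LP) or a normal protein (NP) diet. The genes were taken by their names in the array annotation: 6 MMPs (Mmp2, Mmp3, Mmp9, Mmp11, Mmp13 and Mmp14) and 4 TIMPs (Timp1, Timp2, Timp3 and Timp4). These 10 genes are measured by 12 of the 30367 gene probes of the array, with 2 probes each for Mmp2 and Timp4 and 1 for each other gene. All 10 could be compared, since the signal of each stood well above background on 10 or more of the 12 arrays, for 7 of the genes on all 12. All 10 names matched the RefSeq gene list through the transcript the array annotation gives.

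The study asked how a shortage of protein before birth bears on duct formation and gene expression in the gland. There were 4 groups of 3 rats, NP and LP at day 21 of life and NP and LP at day 28. During pregnancy, LP mothers were fed a semi-purified diet with 8.8% protein and NP mothers one with 17.0%, and both groups had standard chow from birth on. The litters were culled to females that suckled until day 21, so that the rats of day 28 had been weaned. The lumbar glands of the 4th and 5th pair were used whole, with fat, stroma and ducts together, after lymph nodes that could be seen had been taken off. In such whole tissue, fewer cells of a type and less RNA per cell cannot be told apart. Each value below is the log2 signal of a probe after subtraction of the array's own 75th percentile, so that 0 is a gene brighter than 3 in 4 gene spots, and levels of different probes are not set against each other.

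MMPs are zinc-dependent proteinases that cut collagens, laminin, fibronectin and other parts of the extracellular matrix. They are made as inactive proenzymes and, once active, are blocked by TIMPs, which bind the catalytic site. In the growing mammary gland the stroma makes most MMPs, and the balance between proteinase and inhibitor is known to bear on the invasion of the fat pad by end buds, on side branching and on the remodelling of the basement membrane.

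Of the gene spots of an array, 74.8% to 79.6% were well above background and 0 were saturated. Each day had its own slide, and so day and slide cannot be told apart, whereas both diets shared each slide. Within a slide, the NP arrays and 1 LP array (replicate 4a or 4f) took the upper row and the other 2 LP arrays the lower row. The LP array of replicate 6a at day 21 had a median correlation of 0.960 with the others and the NP array of replicate 4f at day 28 one of 0.974, against 0.981 to 0.989 for the other 10. On the former, skeletal muscle and epithelial markers had their highest mean levels of the 12 arrays and lymphoid, neutrophil and macrophage markers their lowest. On the latter, epithelial and fibroblast markers had their lowest. Where leaving out 1 of these arrays moved a result most, the value without it is given too, and the closing section gives the ranges over every array left out.

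For LP against NP rats, 0 of the 10 genes had an adjusted p under 0.05 at day 21 and 0 at day 28 in limma, beside 0% of all 23209 tested probes on either day. Before adjustment, 0 genes had a p under 0.05 at day 21, where 4.36% of all probes did, and 0 at day 28, where 8.07% did. The lowest adjusted p among the members was 0.861 at day 21 and 0.581 at day 28. The median of the 10 log2 differences was 0.08 at day 21 and -0.07 at day 28, beside 0.01 and -0.05 over all tested probes. Regardless of sign, the median size was 0.16 and 0.33, beside 0.14 and 0.18. The 95% interval of the difference lay within 2-fold in both directions for 7 genes at day 21 and 6 genes at day 28. It was wider for Mmp3, Mmp9 and Mmp11 on both days and for Timp1 at day 28.

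**Figure D1:**
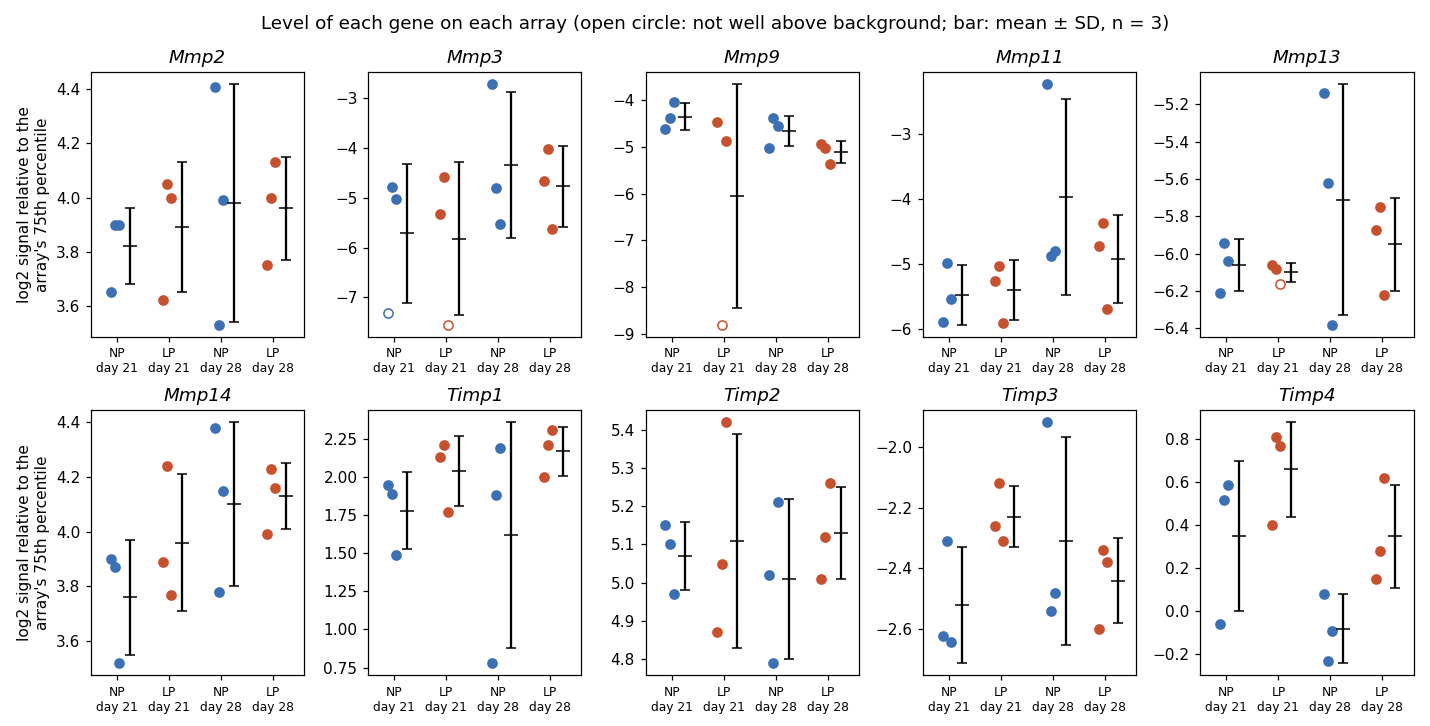
Log2 signal relative to the array's 75th percentile (vertical axis, scaled per gene) on each of the 12 arrays, for the brighter probe of each gene, by group (blue NP, red LP). Open circles are arrays not well above background, and bars are the mean ± SD of 3 arrays with those included: 1 NP array of day 28 (replicate 4f) lies far above the others for Mmp3 and Mmp11, and 1 LP array of day 21 (replicate 6a) far below for Mmp9.

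Mmp2 and Mmp14 are a functional pair. Mmp14 is anchored in the cell membrane and, with Timp2 as an adaptor, activates the proenzyme of Mmp2, a gelatinase that cuts type IV collagen. All 3 were above the 75th percentile of every array, at 3.53 to 4.41 for Mmp2 (chromosome 19 of rn4, 15246221 to 15246280), 3.52 to 4.38 for Mmp14 (chromosome 15, 32503002 to 32503061) and 4.79 to 5.42 for Timp2 (chromosome 10, 108311244 to 108311303). Their pooled SD within groups was 0.28, 0.23 and 0.19, beside a median of 0.23 over all tested probes, and the groups overlapped throughout.

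The mean log2 level of Mmp2 was 3.82 ± 0.14 (SD, n = 3) in NP and 3.89 ± 0.24 in LP rats at day 21, and 3.98 ± 0.44 and 3.96 ± 0.19 at day 28. LP minus NP was 0.07 (95% interval -0.41 to 0.55) at day 21 and -0.02 (-0.50 to 0.46) at day 28, with adjusted p values of 0.97 and 0.973 in limma. The dimmer Mmp2 probe, 584 bases away in the transcript, gave 0.05 and -0.06. Mmp14 had means of 3.76 ± 0.21 in NP and 3.96 ± 0.25 in LP rats at day 21 and of 4.10 ± 0.30 and 4.13 ± 0.12 at day 28 (SD, n = 3). For Mmp14, LP minus NP was 0.20 (-0.21 to 0.61, adjusted p 0.894) at day 21 and 0.03 (-0.38 to 0.43, adjusted p 0.963) at day 28, and 0.06 at day 21 without the LP array of replicate 6a. For Timp2 the means were 5.07 ± 0.09 and 5.11 ± 0.28 at day 21 and 5.01 ± 0.21 and 5.13 ± 0.12 at day 28. It had the narrowest intervals of the 10 genes, 0.04 (-0.31 to 0.39, adjusted p 0.978) and 0.12 (-0.23 to 0.47, adjusted p 0.765). At these arrays' spread, a mean difference above 1.52-fold for Mmp14 and 1.38-fold for Timp2 in favour of LP rats lies outside the intervals of both days.

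Mmp9 is a gelatinase that neutrophils store in granules and that macrophages also secrete. Its probe (chromosome 3 of rn4, 155992463 to 155992522) has 10 spots per array, and the opening 30 bases of the probe are shown because the largest LP against NP difference of the 10 genes was read by it:
Mmp9: acaaggcctatttctgccatgacaaatact
At day 21 the log2 levels were -4.62, -4.39 and -4.04 on the NP arrays of replicates 4a, 5a and 6a. On the LP arrays they were -4.46 for replicate 4a, -8.81 for replicate 6a and -4.88 for replicate 7c. The LP array of replicate 6a was alone in the low value, with 0 of its 10 spots well above background and signals of 3.87 to 9.69, while the other 2 LP arrays had signals of 51 to 110. LP minus NP was -1.70 (SE 0.90, adjusted p 0.861 in limma), and -0.32 without that array.

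On the same array, the lymphoid marker list (B and T cell genes such as Cd79b and Cd3e) had a mean of -5.16, against -0.55 to 0.68 on the other 11. All 10 of its genes were lowest there of the 12 arrays, and 7 of the 10 were still well above background. Neutrophil markers averaged -5.03, against -4.47 to -3.17 on the other 11 arrays, with 4 of 8 lowest there and 5 of 8 well above background. Macrophage markers averaged 0.05 (7 of 9 lowest there), against 0.67 to 1.24. S100a8, a neutrophil and monocyte calcium-binding protein, was at -3.91, against -0.90 to -0.35 on the other arrays of day 21 and -3.96 to -1.17 at day 28. Mpo, another gene of the neutrophil list, was at -2.31, within the -2.64 to -0.57 of the other 11 arrays. The part of these cells in the Mmp9 difference was not tested.

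**Figure D2:**
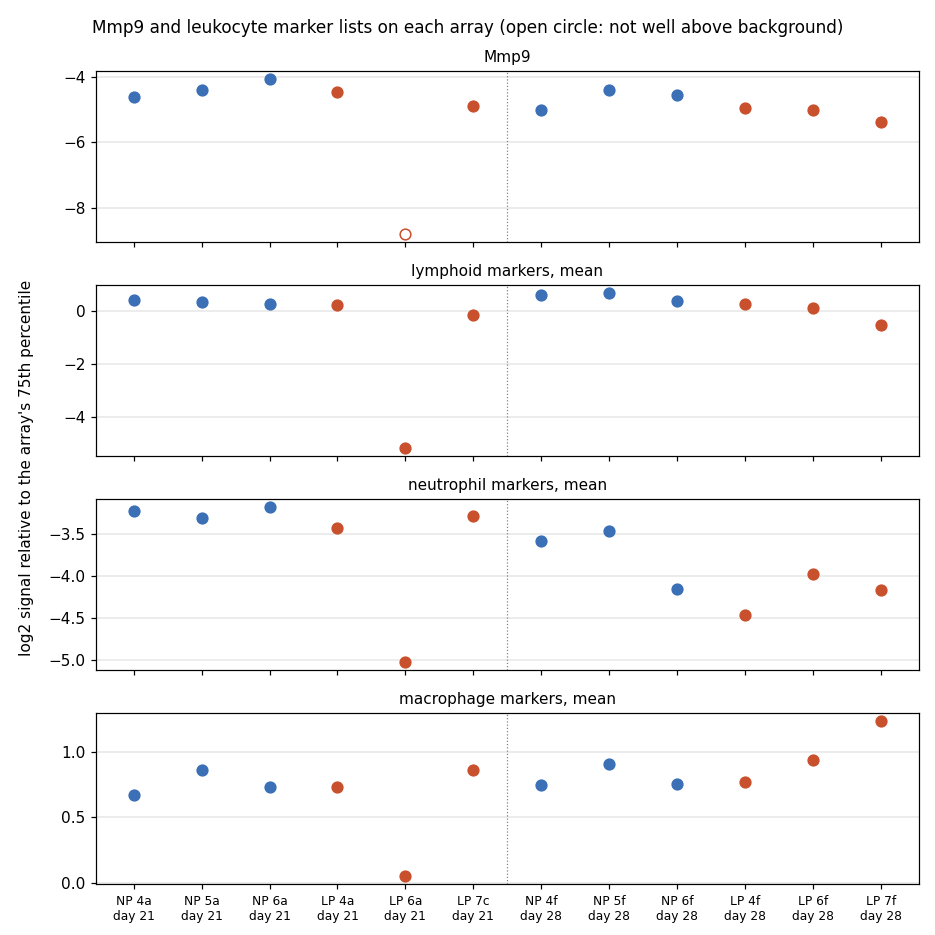
Log2 signal relative to the array's 75th percentile (vertical axis) of Mmp9 and mean log2 signal of the lymphoid, neutrophil and macrophage marker lists on each of the 12 arrays (horizontal axis, blue NP, red LP, dotted line between days). On the LP array of replicate 6a at day 21, Mmp9 was at -8.81 (open circle, not well above background) and the 3 list means were -5.16, -5.03 and 0.05, each the lowest of the 12.

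At day 28, Mmp9 was at -5.02, -4.39 and -4.56 on the NP arrays of replicates 4f, 5f and 6f and at -4.93, -5.02 and -5.37 on the LP arrays of replicates 4f, 6f and 7f. The 2 groups overlapped at the NP array of replicate 4f. LP minus NP was -0.45 (SE 0.90, adjusted p 0.85), with an SE that carries the spread of the single low array of day 21. With the slide row as a covariate the day 28 difference was 0.43, the opposite sign.

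Mmp3, Mmp11 and Mmp13 are secreted proteinases that stromal cells make at low levels in resting tissue. Mmp3 (stromelysin-1) cuts proteoglycans, laminin and fibronectin and activates other proMMPs, Mmp11 (stromelysin-3) is secreted already active, and Mmp13 (collagenase-3) cuts fibrillar collagen. Their probes lie on chromosome 8 of rn4, 4325061 to 4325526 for Mmp3 (over an intron, as the 60 bases of the probe span more of the genome) and 4168554 to 4168613 for Mmp13, and on chromosome 20, 13138152 to 13138211, for Mmp11. The opening 30 bases of the 2 probes with the widest range are shown, Mmp3 and Mmp11:
Mmp3: aggaaatcagatctgggctatccgaggtca
Mmp11: tgggccagtatctctcctggttaagttggc

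At day 28, Mmp11 was at -2.23 on the NP array of replicate 4f and at -4.88 and -4.80 on those of replicates 5f and 6f. The LP arrays of replicates 4f, 6f and 7f were at -4.72, -4.38 and -5.69. The high NP array thus stood alone, and both of its Mmp11 spots were bright, with signals of 439 and 449, against 26.9 to 107 for the spots of the other 11 arrays. At day 21 the levels were -5.90, -4.99 and -5.55 in NP rats and -5.26, -5.03 and -5.91 in LP rats, which overlapped.

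Mmp3 was highest on the same array, at -2.71, beside -4.80 and -5.52 on the other NP arrays and -4.67, -4.01 and -5.63 on the LP arrays of day 28. At day 21 it was at -7.32, -4.78 and -5.02 on the NP arrays and at -5.32, -4.58 and -7.55 on the LP arrays. The lowest value of either diet at day 21 was not well above background, so that 2 of 3 arrays per diet measured it. Mmp13 was highest on the same array too, at -5.14 against -6.38 to -5.62 on the other 11, with all 10 spots well above background.

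The pooled SD within groups was 1.34 for Mmp3, 0.89 for Mmp11 and 0.34 for Mmp13, beside 0.23 for the median probe. The group means of Mmp11 were -5.48 (NP) and -5.40 (LP) at day 21 and -3.97 and -4.93 at day 28. LP minus NP at day 28 was -0.96 (SE 0.66, adjusted p 0.594 in limma) for Mmp11, -0.43 (SE 0.98, adjusted p 0.874) for Mmp3 and -0.23 (SE 0.26, adjusted p 0.726) for Mmp13. With NP replicate 4f left out, the differences were -0.09, 0.39 and 0.05, so that the sign turned for Mmp3 and Mmp13 and little of the Mmp11 difference was left. At day 21, LP minus NP was 0.08 (SE 0.66, adjusted p 0.991), -0.11 (SE 0.98, adjusted p 0.992) and -0.04 (SE 0.26, adjusted p 0.99). Without the LP array of replicate 6a, Mmp11 was at -0.11 and Mmp3 at -0.73.

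In all, 6 of the 10 genes had their highest value of the 12 arrays on the NP array of replicate 4f, the other 3 being Mmp2, Mmp14 and Timp3, while Timp1 had its lowest there. The share of all tested probes that were highest on that array was not counted. The count is therefore not read as a trait of these genes. The counts of the other lists on that array follow as descriptions. They too have no share over all tested probes beside them, and they set no list apart from the 10 genes. Of the 12 other MMP genes tested, 6 had their lowest value there and 0 their highest, and their mean was -3.30, against -2.90 to -2.40 on the other 11 arrays. Of 15 ADAM and ADAMTS proteinases 8 were lowest and 3 highest there, and of 8 genes of the plasmin system and proMMP activation 3 were lowest and 0 highest. Of 15 tested matrix genes (collagens, laminins, fibronectin and others), 11 had their lowest value there, and their mean was 3.16, against 3.61 to 4.01 on the other 11 arrays. Of the 17 tested regulators of MMP transcription, 5 were highest there (Junb, Egr1, Tgfb2, Il1b and Tnf) and 3 lowest (Etv4, Etv5 and Tgfb3). Junb, the only one of the 5 that is a subunit of the AP-1 factor, was at 2.87 there. On the other 11 arrays Junb was at 1.64 to 2.26. Fos, another subunit, was not among the 5. It was at -1.33, above the other 5 arrays of the day and below the -0.90 of the LP array of replicate 6a at day 21. Of the other AP-1 subunits of the list, Fosb has no probe under that name. Jun (-0.24), Jund (2.95) and Fosl2 (-3.63) lay within the range of the other 11 arrays, and Fosl1 was well above background on 1 of the 12 arrays only. The epithelial list was at -0.55 (8 of 10 genes lowest there), the fibroblast list at 2.69 (4 of 10 lowest, 3 highest) and the lymphoid list at 0.59. The part of AP-1 or of cell makeup in the level of these MMPs was not tested.

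**Figure D3:**
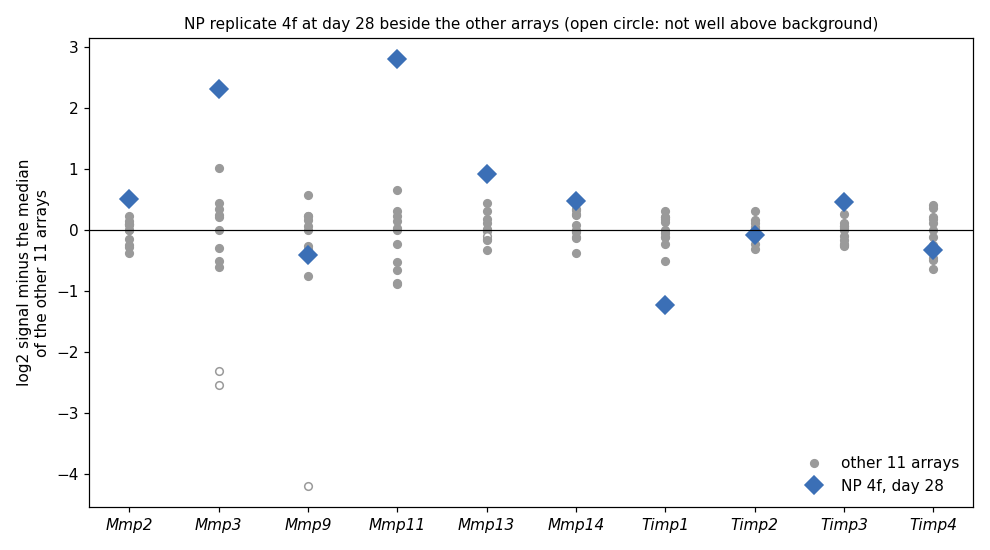
Log2 signal of each gene minus the median of the other 11 arrays (vertical axis) for the NP array of replicate 4f at day 28 (blue diamonds) and for the other 11 arrays (grey circles, open where not well above background). Mmp3, Mmp11 and Mmp13 were higher on that array than on any other, and Timp1 was lower.

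AP-1 is a dimer of Fos and Jun proteins that binds the letters TGAGTCA or TGACTCA, which are the reverse complement of each other, and the promoters of several MMP genes are known to carry such a site. The RefSeq promoter table (build GRCr8, 250 bases before to 50 after the start of each gene) holds 7 of the 10 genes. In the 250 bases before the start, 2 of the 7 hold one of these words on the plus or minus strand, Mmp3 and Mmp13, and 4.05% of all 33469 promoters do. Mmp11, Timp1, Timp2, Timp3 and Timp4 have no match in that window, and Mmp2, Mmp9 and Mmp14 were not searched. Mmp3, Mmp13 and Mmp11 are 3 of the 6 genes that were highest on the NP array of replicate 4f. Of the other 3, Timp3 has no match, and Mmp2 and Mmp14 were not searched. For Mmp3, Mmp13 and Mmp11 the 100 bases before the gene start of that table are shown, with the AP-1 word in capitals. All are on the plus strand, at chr8:12925181-12925280 for Mmp3, chr8:12782729-12782828 for Mmp13 and chr20:12730184-12730283 for Mmp11:
Mmp3: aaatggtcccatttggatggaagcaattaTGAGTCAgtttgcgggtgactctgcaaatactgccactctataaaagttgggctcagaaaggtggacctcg
Mmp13: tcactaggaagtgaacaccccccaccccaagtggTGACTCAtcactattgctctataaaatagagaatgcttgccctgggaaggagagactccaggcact
Mmp11: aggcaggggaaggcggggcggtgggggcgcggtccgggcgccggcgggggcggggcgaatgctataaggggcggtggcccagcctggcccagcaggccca
The word begins 71 bases before the start for Mmp3 and 66 bases before it for Mmp13. These are matches of letters, no binding was measured, and a part of AP-1 in the levels of these genes was not tested.

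Among the inhibitors, Timp4 had the lowest p for LP against NP at day 28 and did not pass the test. Timp4 has a narrower tissue range than the other TIMPs and is known from heart and adipose tissue. Its 2 probes lie 143 bases apart in the same transcript (chromosome 4 of rn4, 151375657 to 151375716 and 151375800 to 151375859). Their opening 30 bases are shown because the same pattern was read by 2 separate stretches:
Timp4, brighter probe: atccttggaagagttctgaagaccaagcca
Timp4, dimmer probe: gaacggaagctctatgggtaccaggcccag
At day 28 the brighter probe was at 0.08, -0.23 and -0.09 on the NP arrays of replicates 4f, 5f and 6f and at 0.15, 0.28 and 0.62 on the LP arrays of replicates 4f, 6f and 7f. All LP arrays were thus above all NP arrays. The dimmer probe was at -0.38, -0.85 and -0.71 in NP and at -0.45, -0.33 and 0.04 in LP rats, with 1 LP array just below the highest NP array.

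LP minus NP for Timp4 at day 28 was 0.43 (SE 0.20, 1.35-fold, adjusted p 0.581 in limma) on the brighter and 0.40 (SE 0.21, 1.32-fold, adjusted p 0.581) on the dimmer probe. At day 21 it was 0.31 (SE 0.20) and 0.31 (SE 0.21), each with an adjusted p of 0.862. At that day the NP arrays were at -0.06, 0.52 and 0.59 and the LP arrays at 0.40, 0.81 and 0.77, which overlapped. Leaving out any 1 array gave 0.30 to 0.53 at day 28 and 0.11 to 0.44 at day 21. With the slide row as a covariate the difference was 0.20 at day 28 and 0.08 at day 21. Over the 12 arrays the 2 probes had a Pearson r of 0.99, and the brighter exceeded the dimmer by 0.46 to 0.66 on every array.

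The groups did not overlap for 1 of the 10 genes at day 28, where this was so for 16.8% of all tested probes, and for 1 at day 21, where it was so for 11.5%. The gene of day 21 was Timp3 (chromosome 7 of rn4, 19679721 to 19679780), an inhibitor that stays bound to the matrix and also blocks ADAM proteinases. It was at -2.62, -2.31 and -2.64 on the NP arrays and at -2.26, -2.12 and -2.31 on the LP arrays, where the nearest values differ only past the 2nd decimal. LP minus NP was 0.30 (SE 0.17, 1.23-fold, adjusted p 0.861) at day 21 and -0.13 (SE 0.17, adjusted p 0.771) at day 28. From day 21 to day 28 that difference moved by -0.42 (SE 0.24, adjusted p 1 in limma), or by -0.23 with NP replicate 4f left out. The day 28 difference itself was then 0.07, the opposite sign.

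Timp1, an inhibitor that cytokines and growth factors induce, has a probe on chromosome X of rn4 (12542700 to 12543703, over an intron). At day 28 it was at 0.78, 1.88 and 2.19 on the NP arrays of replicates 4f, 5f and 6f and at 2.0, 2.21 and 2.31 on the LP arrays, so that the groups overlapped. The NP array of replicate 4f was low by all 10 spots, which had signals of 3480 to 3650. LP minus NP was 0.55 (SE 0.31, 1.47-fold, adjusted p 0.581), and 0.14 when that array was left out. At day 21, where the mean was 1.78 ± 0.25 in NP and 2.04 ± 0.23 in LP rats (SD, n = 3), it was 0.26 (SE 0.31, adjusted p 0.924).

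For the change of the LP against NP difference between the days, 0 of the 10 genes had an adjusted p under 0.05, beside 0% of all probes, and 0 an unadjusted p under 0.05, beside 2.26%. The change with the lowest p of the 10 was that of Timp3.

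**Figure D4:**
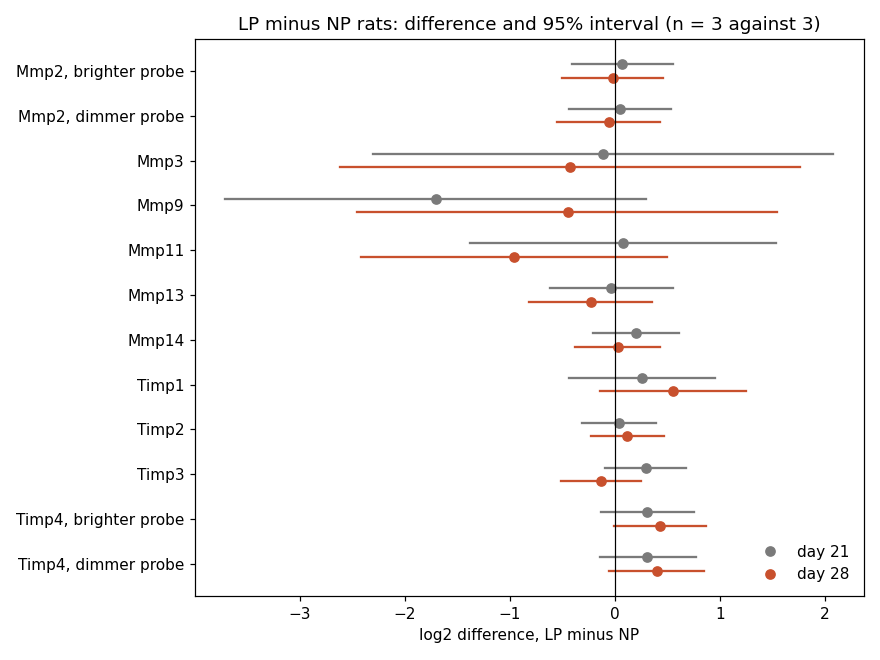
Log2 difference of LP minus NP rats (horizontal axis) with its 95% interval from limma for the 12 probes of the 10 genes, at day 21 (grey) and day 28 (red), 3 arrays against 3. Every interval holds 0, and those of Mmp3, Mmp9 and Mmp11 are the widest.

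Between day 21 and day 28, 0 of the 10 genes had an adjusted p under 0.05 over both diets, where 1.81% of all probes had one. In NP rats alone it was 0 genes beside 0.25% of probes, and in LP rats alone 0 genes beside 0% of probes. Before adjustment, 1 gene had a p under 0.05 over both diets (19.2% of all probes did), 1 in NP rats (12.8%) and 0 in LP rats (10.1%). The groups of the 2 days did not overlap for 0 genes over both diets (3.72% of all probes), for 1 in NP rats (18.7%) and for 1 in LP rats (18.7%). The comparisons within a diet share their arrays with that over both diets.

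The gene over both diets was Timp4, which was lower at day 28 by both probes. On the brighter probe the difference was -0.37 (95% interval -0.68 to -0.06, adjusted p 0.191 in limma) and on the dimmer one -0.36 (-0.69 to -0.04, adjusted p 0.216). It was -0.43 in NP and -0.31 in LP rats. The 4 group means were in the order LP day 21 (0.66 ± 0.22), NP day 21 (0.35 ± 0.35), LP day 28 (0.35 ± 0.24) and NP day 28 (-0.08 ± 0.16, SD, n = 3 each). The outer pairs of neighbours in this order did not differ past the threshold, and the middle pair was level to 2 decimals. Leaving out any 1 array gave -0.47 to -0.31.

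The gene in NP rats was Mmp11, at 1.51 (SE 0.66, 2.85-fold, adjusted p 0.375). All 3 NP arrays of day 28 were above all 3 of day 21, and the difference was 0.64 when replicate 4f of day 28 was left out. In LP rats Mmp11 differed by 0.47 (SE 0.66, adjusted p 0.853), with overlapping arrays. The gene without overlap in LP rats was Timp3, which was lower at day 28 by 0.21 on the log2 scale (-0.21, SE 0.17, adjusted p 0.729). Mmp14 was higher at day 28 by 0.25 (-0.04 to 0.54, adjusted p 0.317) over both diets, 0.34 in NP and 0.16 in LP rats. Mmp3 was at 1.21 (-0.34 to 2.76, adjusted p 0.366) over both diets, or 0.80 with NP replicate 4f of day 28 left out, a difference that includes 2 arrays of day 21 where it was not well above background. Mmp9 was at 0.32 (-1.10 to 1.73, adjusted p 0.817), or -0.37 without the LP array of replicate 6a at day 21. Mmp13 was at 0.25 (SE 0.18, adjusted p 0.481), or 0.11 with NP replicate 4f of day 28 left out. Mmp11 was at 0.99 (SE 0.46, adjusted p 0.277), or 0.55 without the same NP array. For Timp2, Timp3, Timp1 and Mmp2 the difference over both diets lay between -0.02 and 0.11. With NP replicate 4f left out it lay between -0.10 (Timp3) and 0.20 (Timp1).

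**Figure D5:**
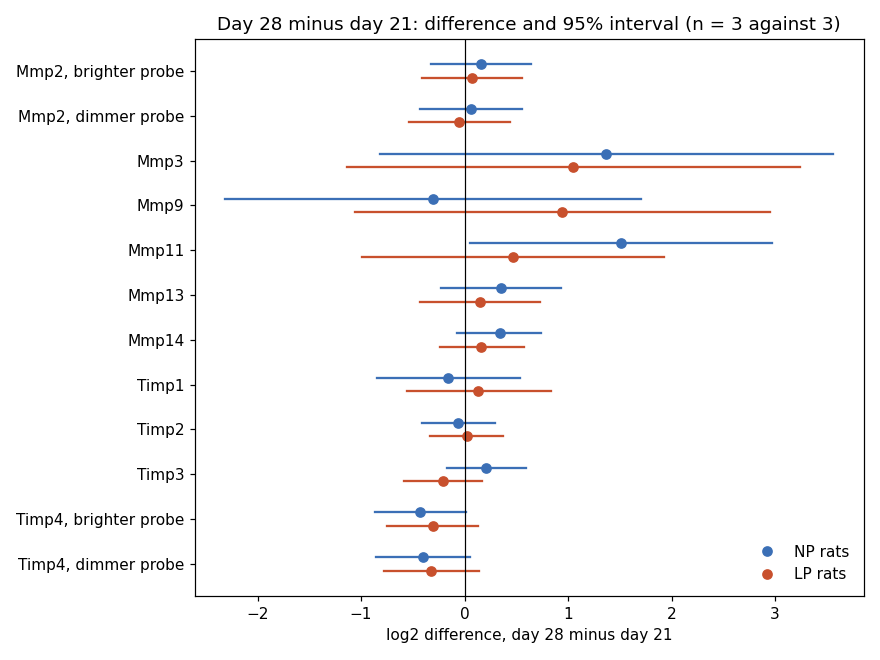
Log2 difference of day 28 minus day 21 (horizontal axis) with its 95% interval from limma for the 12 probes, in NP rats (blue) and LP rats (red), 3 arrays against 3. The interval of Mmp11 in NP rats (0.05 to 2.97) is the only one drawn that leaves out 0, and the differences of both Timp4 probes lie below 0 in both diets.

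Other genes of the same system were taken from lists written for this purpose. Of 19 other MMP genes, 17 have a probe and 12 could be tested, where a gene counts as passing if any of its probes passes. Mmp1b, Mmp10, Mmp20 and Mmp21 were not well above background on any array, while Mmp1a was so on 1. For LP against NP, 0 of the 12 passed on either day, with the lowest p for Mmp25 at day 21 (-0.80, SE 0.35, adjusted p 0.861) and Mmp19 at day 28 (0.52, SE 0.24, adjusted p 0.581). Between the days, over both diets, 1 passed in each direction.

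Mmp12, the macrophage elastase, was higher at day 28 by 0.93 (SE 0.19, 1.91-fold, adjusted p 0.0411 in limma). On the NP arrays it was at -4.38, -3.31 and -4.53 at day 21 and at -3.31, -3.38 and -3.47 at day 28, so that 1 NP array of day 21 (replicate 5a) lay with the arrays of day 28. On the LP arrays it was at -4.40, -4.44 and -4.76 at day 21 and at -3.31, -3.45 and -3.30 at day 28, with no overlap. The adjusted p stayed under 0.05 in 1 of the 12 fits that left out an array and was at most 0.102 in the others. The macrophage list averaged 0.05 on the LP array of replicate 6a at day 21 and 0.67 to 0.86 on the other arrays of that day. At day 28 it averaged 0.75 to 1.24, and its part in the Mmp12 difference was not tested.

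Mmp17, a membrane-anchored MMP, was lower at day 28 by its dimmer probe (-0.70, SE 0.14, adjusted p 0.0419), which read -5.93 to -5.52 at day 21 and -6.95 to -6.11 at day 28. Its brighter probe gave -0.18 (SE 0.12, adjusted p 0.419), so that the probes disagree in size, and with the normexp background the dimmer probe gave -0.10 (adjusted p 0.544). The call of the dimmer probe held in 2 of the 12 fits that left out an array, with an adjusted p of at most 0.106. Among 15 tested matrix substrates, 1 passed between the days. Eln, which encodes elastin, the substrate of Mmp12, was lower at day 28 by 0.72 on the log2 scale (-0.72, SE 0.15, 1.65-fold, adjusted p 0.0416), and its other probe gave -0.61 (adjusted p 0.117). On the probe that passed, Eln was at -2.82 to -1.97 at day 21 and at -3.24 to -2.88 at day 28, with no overlap. The call held in 1 of the 12 fits that left out an array, with an adjusted p of at most 0.105.

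Of the other lists, 0 of 15 tested ADAM and ADAMTS proteinases passed in any of the 6 comparisons, 0 of 8 genes of the plasmin system and proMMP activation, 0 of 11 membrane and secreted MMP regulators and 0 of 17 regulators of MMP transcription. Their lowest adjusted p was 0.068, for Adam15 between the days (-0.35, SE 0.08). In the joint list of the plasmin system and proMMP activation, Pcsk6, a proprotein convertase, had the lowest p (-0.68, SE 0.20, adjusted p 0.111) between the days. Among the MMP regulators it was the beta 1 integrin Itgb1 (-0.28, SE 0.08, adjusted p 0.116). Among the matrix substrates and LP against NP, the lowest p was that of the nidogen gene Nid1 at day 21 (0.38, SE 0.25, adjusted p 0.862) and of the biglycan gene Bgn at day 28 (0.32, SE 0.14, adjusted p 0.581).

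The marker lists of the gland's cell types show how far its makeup varied. Epithelial markers differed by a median of 0.92 at day 21 and 0.73 at day 28 in favour of LP rats, with 0 of 10 genes passing on either day. The difference of the list's mean was 0.88 at day 21, or 0.46 with LP replicate 6a left out, and 0.67 at day 28, or 0.26 with NP replicate 4f left out. The mean of the epithelial list ranged from -0.30 to 0.92 in NP and 0.25 to 1.90 in LP rats at day 21, and from -0.55 to 0.75 and 0.85 to 1.10 at day 28. Adipocyte and fibroblast lists differed by a median of -0.04 and 0.06 at day 21 and of 0.03 and 0.04 at day 28. The difference of the fibroblast list's mean at day 28 was 0.23, or 0.14 with NP replicate 4f left out. The mean of the skeletal muscle list ranged from -4.75 to 2.80 over the 12 arrays. LP minus NP of that mean was -1.44 at day 21, or -3.25 without LP replicate 6a. At day 28 it was -0.55, or -1.07 without NP replicate 4f. For the mean of the lymphoid list, LP minus NP was -2.03 at day 21, or -0.30 without LP replicate 6a. The lymphoid value at day 28 was -0.60, or -0.57 without NP replicate 4f. The neutrophil mean differed by -0.68 at day 21 (-0.12 without LP replicate 6a) and by -0.47 at day 28 (-0.40 without NP replicate 4f). The mean of the liver gene list differed by -0.72 at day 21 (-1.12 without LP replicate 6a) and by 0.19 at day 28 (0.05 without NP replicate 4f). For the macrophage, mast cell and endothelial means the differences lay between -0.28 and 0.18 on both days. Between the days, over both diets, 1 of 9 adipocyte markers was higher at day 28 (Retn, 0.69, SE 0.13, adjusted p 0.0384) and 1 of 10 endothelial markers lower (Tie1, -0.63, SE 0.12, adjusted p 0.035). In the 12 fits that left out an array, Retn stayed under 0.05 in 2 and Tie1 in 3, with adjusted p values of at most 0.0889 and 0.0819. The part of these differences in the levels of the TIMPs was not tested.

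By likeness over the 12 arrays, the gene most like Timp1 of 17430 genes detected throughout was Smoc2 (Pearson r 0.98), which encodes a matrix-associated calcium-binding protein, followed by Acer3 and Gtse1 (0.96 each). Without the NP array of replicate 4f these values were 0.97, 0.89 and 0.87. Mmp11 was most like Calml3 (0.97), LOC682105 (0.96) and Foxn3 (0.96), and 0.89, 0.81 and 0.82 without that array. Timp4 was most like Shroom2 (0.91), Mcf2l (0.91) and Myo10 (0.90), and Mmp2 most like Tmem5 (0.96), Tcea2 and Efna1 (0.92 each). Without NP replicate 4f the values were 0.91, 0.94 and 0.91 for Timp4 and 0.95, 0.87 and 0.85 for Mmp2. For Mmp14 they were Ccdc112 (0.91), Zbed3 (0.90) and LOC100363283 (0.89), for Timp2 Hecw2 (0.88), Ube2g2 (0.85) and Tmem41b (0.84), and for Timp3 an unnamed probe (0.92), Polr3f (0.90) and Car11 (0.89). Without NP replicate 4f these were 0.88, 0.86 and 0.88 for Mmp14, 0.92, 0.85 and 0.84 for Timp2 and 0.86, 0.83 and 0.80 for Timp3. Each named gene was picked for its high r among the 17430, which by itself favours high values over 12 arrays. The arrays share their scaling and their tissue makeup, and these values are descriptions with no test.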

How the data were processed

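RNA of 12 lumbar mammary glands, 1 rat each, was hybridised in 1 colour (Cy3) to Agilent rat arrays with 58717 gene spots. The authors deposited each spot's processed intensity from Agilent Feature Extraction 10.7.3.1, background-subtracted and not scaled between arrays. Their deposited table of processed values, a constant multiple of these per array (largest relative deviation 6.56e-05), was an alternative. Here control and outlier spots were left out, and the log2 of the deposited intensity minus the 75th percentile of the array was averaged over a probe's spots. A probe counted as well above background where at least 0.5 of its spots were. The 23209 probes so on at least 3 arrays went into a single two-sided linear model of the 4 groups (limma 3.58.1, R 4.3.3), tested on simulated data, with Benjamini-Hochberg adjustment over all of them. The members, lists, tests and alternatives were chosen with earlier results of these data known. All 10 members are named, by their brighter probe, and from the lists the genes past the threshold or with the lowest p, and the 3 with the highest r for likeness. The labels do not say which rats were littermates, so p values measure the spread between these samples, and 3 arrays per group limit the precision. Exon and UTR annotation of rn4 was not used here. Alternatives were quantile normalization, normexp with an offset of 50, other filters, eBayes with trend, gene means, outlier spots kept, each array left out, single diets or days, replicate blocks and the slide row. Leaving the 2 arrays that stood apart out of the marker means was added after the data were seen.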

Additional observations from a re-analysis of the deposited data

How the results depend on the processing

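The count of members with an adjusted p under 0.05 was 0 in all 6 comparisons under each of the 27 alternatives that applied, with a lowest adjusted p of 0.104. Of 1312 log2 differences under alternatives, 1245 kept their sign or were 0 in the main fit or the alternative, and 67 turned. For LP against NP at day 21, the replicate number as a block turned Mmp2 to -0.09, Mmp3 to 0.66, Mmp13 to 0.10 and Timp2 to -0.11, the slide row as a covariate turned them to -0.17, 0.19, 0.02 and -0.14, and normexp turned Mmp3 to 0.09 and Mmp13 to 0.11. At day 28 the block turned Mmp3 to 0.34 and Timp2 to -0.04, and the slide row Mmp9 to 0.43, Mmp14 to -0.08 and Timp2 to -0.06. Between the days in LP rats, quantile normalization turned Mmp2 to -0.04 and Timp2 to -0.07, and normexp Mmp2 to -0.07. The cause was not tested.

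Leaving out each array gave both signs for the following. LP against NP at day 21: Mmp2 -0.01 to 0.20, Mmp3 -0.92 to 0.76, Mmp11 -0.13 to 0.34, Mmp13 -0.11 to 0.03 and Timp2 -0.11 to 0.16. At day 28: Mmp2 -0.25 to 0.19, Mmp3 -1.02 to 0.39, Mmp13 -0.57 to 0.05, Mmp14 -0.14 to 0.16 and Timp3 -0.24 to 0.07. Day 28 against day 21 over both diets: Mmp9 -0.37 to 0.71, Timp1 -0.15 to 0.20, Timp2 -0.08 to 0.05 and Timp3 -0.10 to 0.06. In NP rats: Mmp2 -0.05 to 0.38, Timp1 -0.44 to 0.26 and Timp2 -0.16 to 0.05. In LP rats: Mmp2 -0.07 to 0.17, Mmp9 -0.44 to 1.74 and Timp2 -0.10 to 0.17. Change of the diet difference between the days: Mmp2 -0.31 to 0.12, Mmp3 -1.19 to 0.50, Mmp9 -0.13 to 2.05, Mmp13 -0.53 to 0.09, Timp1 -0.12 to 0.58, Timp2 -0.04 to 0.23 and Timp4 -0.02 to 0.32.

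Same-numbered arrays of the 2 diets had deviations correlated at 0.089 to 0.132 (4 pairs) and those of the 2 days at -0.055 to 0.379 (6 pairs), and 6 of 8 and 10 of 12 arrays were most like their own number, a hint of pairing from the data. The labels tie no number to a litter or animal and not every pair correlated clearly, so the numbers were not taken as pairs. With the number as a block, 0 members were called, and with diet and number as a block between the days, 0 members and 21 of all probes, against 421 without it. Under that block the adjusted p between the days was 0.0898 for Mmp12, 0.0558 for Mmp17, 0.0685 for Eln, 0.0859 for Retn and 0.11 for Tie1. Over all alternatives, probes called ranged from 21 to 485 for the days over both diets, 0 to 91 in NP rats and 0 to 6 in LP rats. Under the strictest filter (above background on every array), Mmp3, Mmp9 and Mmp13 gave no value.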
